A study of Drosophila melanogaster with 18 samples.

Results

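The 10 genes aly, comr, topi, tomb, achi, vis, can, sa, mia and nht are regulators that male germ cells need to switch on their late transcription programme. They were taken by symbol from the gene and isoform tables of all 3 stages, splitting merged symbols on commas. All 10 were found, among 14542 gene entries, and they hold 14 of the 32574 isoform entries. RNA of whole Drosophila melanogaster larvae and prepupae had been sequenced in 18 samples. The control was the strain w1118. The other genotype, labelled with strain yw, carried the alleles DG05102 and Z2-0488 of Nxt1 in trans, so the effects of the alleles and of the strain background cannot be told apart. Each genotype was taken as wandering third-instar larvae with blue guts (the food held 0.05% bromophenol blue), as stationary larvae with clear or light blue guts, and as white prepupae within the first hour of pupariation, with 3 samples per genotype and stage. The labels give neither the sex of the animals nor whether samples of a group came from separate cultures. The product of Nxt1 pairs with sbr, the receptor that carries mRNA out of the nucleus, and spermatocytes are known to depend on Nxt1 for many testis transcripts.

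In fly testes, spermatocytes grow for a long time before the meiotic divisions and transcribe most genes that spermatids will need later. A testis form of the MuvB/dREAM chromatin complex, called tMAC, and testis versions of the general TBP-associated factors (TAFs) act on these genes. Without them spermatocytes arrest before the divisions and late testis transcripts are missing, which gave the group the name meiotic arrest genes. aly, comr, topi and tomb encode tMAC subunits: aly is a relative of mip130, tomb of mip120, and topi has zinc fingers. achi and vis are adjacent, closely similar genes for homeodomain proteins of the TGIF family that work with tMAC. can, sa, mia and nht encode testis TAFs, relatives of the general factors Taf5, Taf8, Taf6 and Taf4.

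The deposited tables hold, for each stage, 1 pooled FPKM per genotype, a level in fragments per transcript length and per sequenced fragments. Values of single samples are not in the tables used here, so the spread between the 3 samples of a group cannot be shown and the depth of each sample is unknown. Levels, fold changes, p and q below are, unless said otherwise, those of the authors' deposited table (Cuffdiff) for that stage. Pairs of levels give w1118 first and the trans-heterozygotes second. The error after a log2 fold change is a standard error derived from the deposited test statistic, and the 95% interval follows from it. A gene was called when its status was OK and its q, the adjusted p, was at most 0.05. Each stage was compared in a table of its own, so levels of different stages are set side by side without a test. In RNA of whole animals, fewer cells of a type and less RNA per cell cannot be told apart.

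Nxt1 itself was not called at any stage, with 11.6 against 9.28 FPKM in wandering larvae, 11.5 against 15.5 FPKM in stationary larvae and 10.6 against 17.9 FPKM in prepupae, so its RNA level does not check the genotype labels.

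None of the 10 regulators was called in any stage, a count that with so few genes is close to the background of all tested genes. In wandering larvae 0 of 10 were called, where 11.8% of all 10898 tested genes were. In stationary larvae 0 of 10 were called, against 17.9% of 11128 genes. In prepupae 0 of the 9 tested were called, against 16.9% of 10780 genes. comr was not tested by the authors in prepupae. At an unadjusted p under 0.05 there were 2 regulators in wandering larvae (topi and nht), 0 in stationary larvae and 1 in prepupae (topi), against 18.2%, 25.9% and 25.6% of tested genes. The trans-heterozygous value was the lower one at all 3 stages for 4 regulators (comr, topi, sa and nht) and the higher one at all 3 for 2 (achi and vis).

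The levels of the regulators were low in whole animals. In the 6 groups they lay between 1.01 and 17.0 FPKM, with 0 under 1 FPKM and 7 or 8 of the 10 genes under 5 FPKM. Among tested genes whose larger FPKM lay in the same range as the larger FPKM of the regulators (1.15 to 17.0), 10.7%, 13.7% and 12.9% were called at the 3 stages in turn. The share of these genes that was called lower in the trans-heterozygotes was 9.46%, 11.1% and 11.7%. At a stricter q of 0.01, 0 regulators were called, against 8.7%, 13.4% and 12.1% of all tested genes. Standard errors of the regulators' log2 fold changes ran from 0.31 to 2.85 in wandering larvae, from 0.29 to 1.94 in stationary larvae and from 0.29 to 1.80 in prepupae. Summed over the 10 genes, the level was 44.7 FPKM in w1118 and 42.4 FPKM in trans-heterozygous wandering larvae, 53.2 against 54.1 FPKM in stationary larvae, and 42.4 against 44.7 FPKM in prepupae. These sums join groups that went in different directions. The tMAC genes, with the merged tomb entry, summed to 9.26 against 7.08 FPKM, 11.5 against 8.65 FPKM, and 8.54 against 7.50 FPKM. For achi and vis the sums were 19.0 against 24.6 FPKM, 24.1 against 29.4 FPKM, and 19.6 against 24.9 FPKM. The testis TAF genes had 16.4 against 10.7 FPKM, 17.7 against 16.0 FPKM, and 14.2 against 12.3 FPKM. The median log2 fold change of the tested regulators was -0.27, -0.18 and -0.001 at the 3 stages, beside -0.003, -0.04 and -0.05 over all tested genes.

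**Figure D1:**
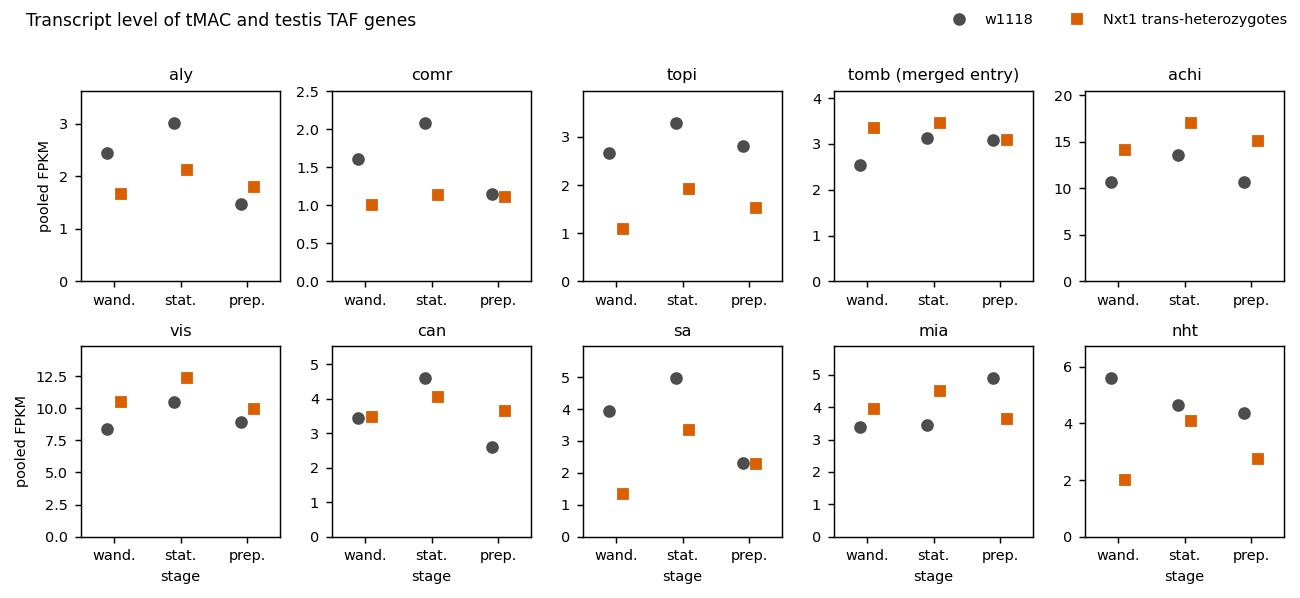
Pooled FPKM (y axis, from 0, its own scale in each panel) of each of the 10 regulators in wandering larvae, stationary larvae and white prepupae (x axis) in w1118 (grey circles) and Nxt1 trans-heterozygotes (orange squares). Each point is 1 pooled value of 3 samples and has no error bar; comr, topi, sa and nht are lower in the trans-heterozygotes at every stage, achi and vis are higher at every stage, and no difference was called.

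Of the 4 tMAC subunit genes, 3 had a lower value in the trans-heterozygotes in both larval stages, and 0 were called. The gene aly (FBgn0004372, arm 3L, 3024129 to 3026521) had 2.45 against 1.66 FPKM in wandering larvae, 3.02 against 2.13 FPKM in stationary larvae and 1.48 against 1.79 FPKM in prepupae. The trans-heterozygous value was the lower one in both larval stages and the higher one in prepupae. The log2 fold changes of -0.56 ± 0.59, -0.50 ± 0.57 and 0.28 ± 0.68 all had intervals that include 0 (q = 0.864, 0.705 and 0.886). Coordinates are those of the deposited tables, converted to count from 1, and the genome build is not given in the sources used here.

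The gene comr (FBgn0034667, arm 2R, 17752373 to 17754364), for a nuclear protein that works with aly, had the lowest level of the 10 entries in every group. The entry that holds tomb is merged with a neighbour. The isoform of tomb alone was lower than comr in w1118 wandering and stationary larvae, at 1.42 and 1.30 FPKM. The levels of comr were 1.61 against 1.01 FPKM in wandering larvae, 2.09 against 1.13 FPKM in stationary larvae and 1.15 against 1.11 FPKM in prepupae. Its log2 fold changes were -0.67 ± 0.60 in wandering larvae (q = 0.779) and -0.88 ± 0.54 in stationary larvae (q = 0.322).

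The zinc-finger gene topi (FBgn0037751, arm 3R, 5600843 to 5603665) came closest to a call. It had 2.66 against 1.08 FPKM in wandering larvae, 3.29 against 1.93 FPKM in stationary larvae and 2.82 against 1.52 FPKM in prepupae. The trans-heterozygous value was the lower one at each stage. The w1118 level was 2.47, 1.71 and 1.86 times that of the trans-heterozygotes. The log2 fold changes were -1.31 ± 0.50, -0.77 ± 0.42 and -0.89 ± 0.44, and the adjusted values were q = 0.0711, 0.233 and 0.178. The intervals in wandering larvae, from -2.29 to -0.32, and in prepupae, from -1.76 to -0.02, did not hold 0, but no value passed the threshold after adjustment.

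The gene tomb (FBgn0031715) is held by an entry that merges it with its neighbour CG14015 (arm 2L, bundle 5525905 to 5539196, shared with 4 other entries, Cap-D3 among them). The merged entry had 2.54 against 3.34 FPKM in wandering larvae, 3.12 against 3.46 FPKM in stationary larvae and 3.09 against 3.09 FPKM in prepupae. The isoform of tomb alone was listed at 1.42 against 1.85 FPKM, 1.30 against 1.93 FPKM, and 1.36 against 1.5 FPKM, and the authors' software marked it as having too little data for a test. The entry's q of 1.0, 0.975 and 1.0 therefore cannot be assigned to tomb. In the current Ensembl annotation tomb also overlaps Cap-D3 on the other strand, and the strand setting of the counting is not given.

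The homeodomain genes achi and vis were the highest of the 10 in every group and had a higher value in the trans-heterozygotes at every stage, without a call. The gene achi (FBgn0033749, arm 2R, 8399037 to 8402556) had 10.7 against 14.1 FPKM in wandering larvae, 13.6 against 17.0 FPKM in stationary larvae and 10.7 against 15.0 FPKM in prepupae. Its log2 fold changes were 0.41 ± 0.31, 0.33 ± 0.29 and 0.49 ± 0.29 (q = 0.650, 0.575 and 0.292). The gene vis (FBgn0033748, arm 2R, 8395396 to 8398311), next to achi, had 8.38 against 10.5 FPKM, 10.5 against 12.4 FPKM, and 8.91 against 9.91 FPKM, with log2 fold changes of 0.32 ± 0.38, 0.24 ± 0.35 and 0.15 ± 0.35 (q = 0.908, 0.799 and 0.875). The pair arose by duplication, so reads shared between the copies may have been split between them, and their values are not independent. Between the second and the third gene in the order of levels the ratio was 1.49, 2.11 and 1.82 in w1118 and 2.65, 2.74 and 2.73 in the trans-heterozygotes. The other 8 entries, the merged one of tomb included, ran from 5.61 to 1.61 FPKM in w1118 wandering larvae. In w1118 prepupae they ran from 4.90 to 1.15 FPKM. With no spread over samples, the order of genes at nearby levels cannot be resolved.

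Among the testis TAF genes, can had the smallest standard error at each stage. The gene can (FBgn0011569, arm 3L, 10257009 to 10260211), a relative of Taf5, had 3.44 against 3.47 FPKM in wandering larvae, 4.59 against 4.05 FPKM in stationary larvae and 2.60 against 3.64 FPKM in prepupae. The genotypes nearly coincided in wandering larvae, with a log2 fold change of 0.01 ± 0.35 and a 95% interval from -0.66 to 0.69. The later values were -0.18 ± 0.32 and 0.48 ± 0.34, and q was 1.0, 0.842 and 0.420 at the 3 stages.

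The gene mia (FBgn0014342, arm 3R, 1373837 to 1376354), a relative of Taf6, had 3.39 against 3.96 FPKM in wandering larvae, 3.45 against 4.51 FPKM in stationary larvae and 4.90 against 3.63 FPKM in prepupae. It was higher in the trans-heterozygotes in both larval stages and lower in prepupae. The log2 fold changes were 0.23 ± 0.63, 0.39 ± 0.56 and -0.43 ± 0.51 (q = 1.0, 0.795 and 0.703).

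The gene nht (FBgn0041103, arm 2L, 15317954 to 15318901), a relative of Taf4 and a gene with a single exon, had 5.61 against 2.00 FPKM in wandering larvae, 4.64 against 4.09 FPKM in stationary larvae and 4.39 against 2.75 FPKM in prepupae. The gap was 2.81-fold in wandering larvae and 1.13-fold in stationary larvae. Its log2 fold changes were -1.49 ± 0.63, -0.18 ± 0.53 and -0.68 ± 0.58 (q = 0.120, 0.920 and 0.557). From wandering to stationary larvae the log2 fold change differed by 1.31 ± 0.82, with a 95% interval from -0.30 to 2.92, and the two-sided normal test did not pass after adjustment over 10459 genes.

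The gene sa (FBgn0002842), a relative of Taf8, had 3.93 against 1.32 FPKM in wandering larvae, 4.97 against 3.36 FPKM in stationary larvae and 2.30 against 2.27 FPKM in prepupae. Its entry lies in a bundle (arm 3L, 21375601 to 21426234) shared with rgn, CG33288 and barc, and the annotation places sa opposite rgn. Its errors were the largest of the 10, with log2 fold changes of -1.57 ± 2.85, -0.57 ± 1.94 and -0.02 ± 1.80 (q = 0.984, 0.935 and 0.998). The interval in wandering larvae reached a fall of 143-fold, so these data hardly limit a change of sa.

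**Figure D2:**
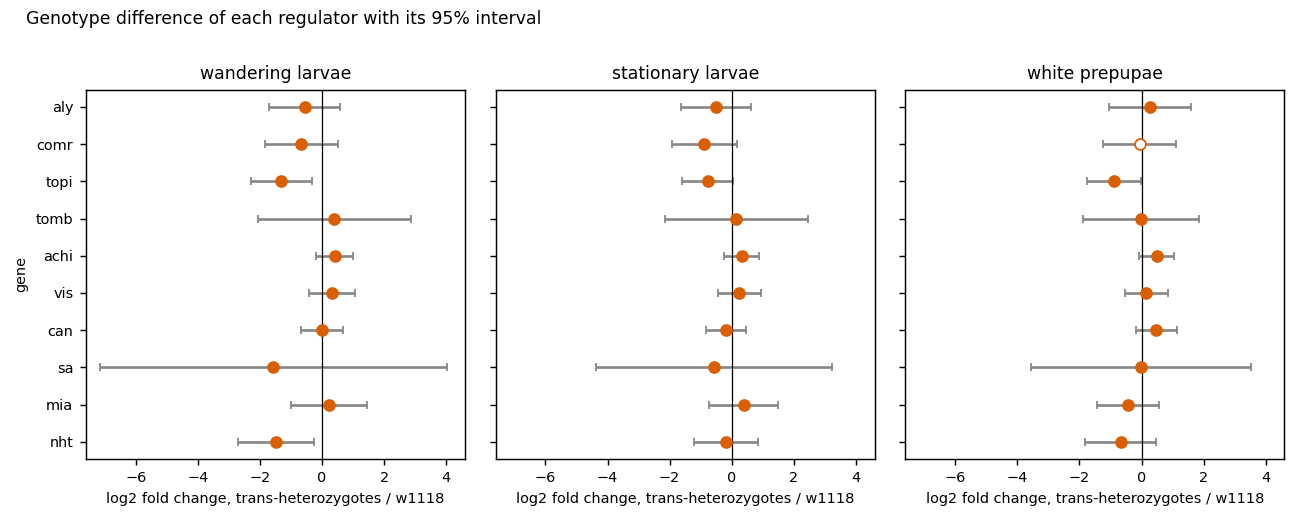
Log2 fold change, trans-heterozygotes relative to w1118 (x axis), for each of the 10 regulators (y axis) at the 3 stages, with 95% intervals from the deposited test statistics. The open symbol is comr in prepupae, which was not tested. The intervals of topi and nht in wandering larvae and of topi in prepupae do not hold 0, and those of sa are the widest.

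The intervals say how large a fall these tables leave possible. In wandering larvae the interval lay above a 4-fold fall for 6 of 10 genes and above a 2-fold fall for 3. In stationary larvae the counts were 8 and 4 of 10, and in prepupae 8 and 3 of 9. Only can in wandering larvae, achi, vis and can in stationary larvae and vis in prepupae had intervals wholly within a 2-fold change either way. An uncalled gene is therefore not shown to be equal in both genotypes. The genotype effect was also compared between stages, with separate controls at each. Of the regulators 0 of 10 passed from wandering to stationary larvae (Benjamini-Hochberg over all genes tested at both), 0 of 9 from stationary larvae to prepupae and 0 of 9 from wandering larvae to prepupae. The background was 0.66%, 0.861% and 1.06% of genes, and 0 regulators had an unadjusted p under 0.05 in each comparison.

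Most genes on a list of classical targets of the meiotic arrest genes were called lower in the trans-heterozygotes at every stage. Of 42 tested genes on this list, 28 had fallen and 1 had risen in wandering larvae. That was 66.7% lower against 9.49% of all tested genes, and 1 gene higher where 2.29% of all were. In stationary larvae 28 of 41 had fallen and 0 had risen (68.3% lower, against 13.2% lower and 4.7% higher of all), and in prepupae 29 of 41 had fallen and 0 had risen (70.7% lower, against 12.9% lower and 4.03% higher of all). The median log2 fold change of the list was -3.18, -3.12 and -3.01. In prepupae 2 genes were listed at 0 in the trans-heterozygotes, and the median was -3.51 with these placed at the lower end. Of the 42, 25 were called lower at all 3 stages, 32 at 1 or more, and 9 were not called at any. The list was chosen with results of these samples known, so its direction is no independent evidence, and the difference between the list and the regulators was not tested.

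Values of the targets show the scale. The twine gene twe, a Cdc25 phosphatase for the meiotic divisions, fell, with 11.9 against 3.53 FPKM in wandering larvae, 17.0 against 4.86 FPKM in stationary larvae and 14.4 against 3.9 FPKM in prepupae (q = 0.0177, 0.00119 and 0.00678). The gene bol, whose RNA-binding protein promotes translation of twe, fell, with 71.4 against 17.8 FPKM, 87.5 against 15.2 FPKM and 64.9 against 10.7 FPKM. Transcription of bol, twe and CycB in spermatocytes is known to need aly. CycB, a mitotic cyclin gene that dividing cells of many tissues also transcribe, was not called, at 18.2 against 19.2 FPKM, 20.4 against 22.4 FPKM, and 17.8 against 18.8 FPKM.

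The largest fold among genes called from the list with a level above 0 was at every stage that of ran-like, a testis relative of the transport GTPase Ran, with 24.2 against 0.0647 FPKM in wandering larvae. The mitofusin gene fzo, a classical target of both complexes, had 20.0 against 1.53 FPKM, 26.9 against 2.18 FPKM and 19.8 against 1.33 FPKM, yet was not called (q = 0.361, 0.193 and 0.0778). Among entries that were not called, the merged janA,janB had 133 against 90.5 FPKM in wandering larvae. The merged entry of gdl with Eip71CD and Z600 fell in wandering larvae, with 197 against 108 FPKM (q = 0.00785), and was not called at 218 against 157 FPKM in stationary larvae and 179 against 158 FPKM in prepupae. The 1 gene that rose, Acsf2, an acyl-CoA synthetase family gene listed without a firm testis assignment, had 2.20 against 5.02 FPKM in wandering larvae (q = 0.0448).

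**Figure D3:**
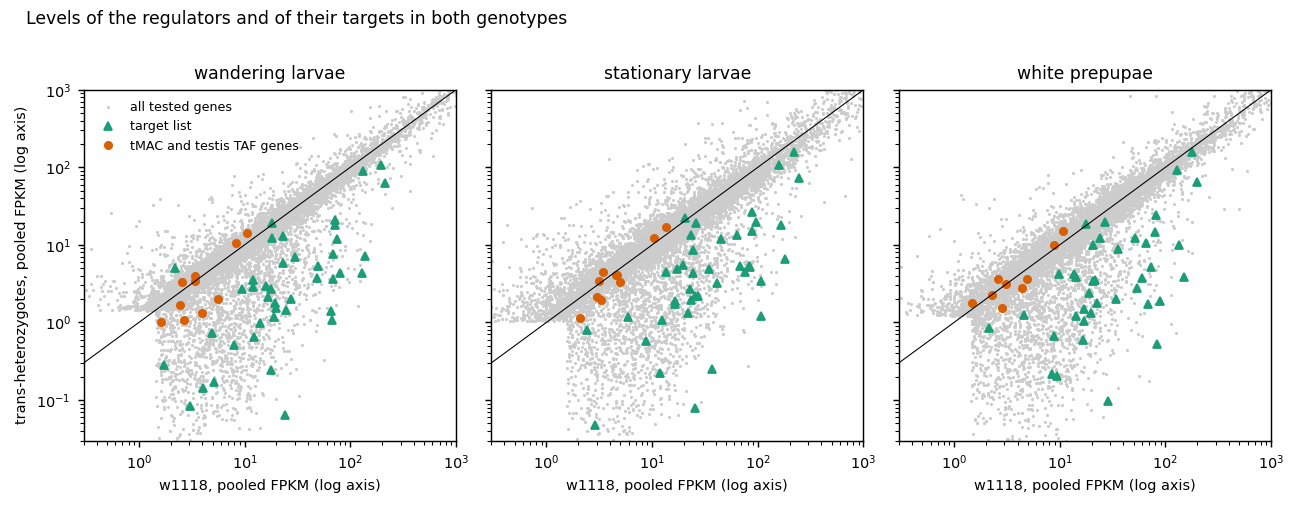
Pooled FPKM in w1118 (x axis) and in the trans-heterozygotes (y axis), both on log axes, at the 3 stages, for all tested genes (grey), the target list (green triangles) and the tested tMAC and testis TAF genes (orange circles). The line marks equal levels, and genes listed at 0 or outside the axes are not drawn; most targets lie far below the line, while the regulators lie nearer to it, at levels of 1.01 to 17.0 FPKM.

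Some targets at levels like those of the regulators were called and others with larger folds were not. The cup gene r-cup fell, with 4.88 against 0.723 FPKM in wandering larvae (q = 5.54e-05) and p-cup, another gene transcribed late in spermatogenesis, fell, with 1.73 against 0.286 FPKM (q = 0.0453), but was not called in prepupae (q = 0.145). In wandering larvae d-cup had 3.05 against 0.0834 FPKM (q = 0.447), Pif2 had 4.02 against 0.145 FPKM (q = 0.755) and sunz had 5.11 against 0.170 FPKM (q = 0.0579), none of them called. These genes, and fzo, twe, CycB, tbrd-1, tbrd-2, tbrd-3, kmg, vas, bam, krimp, roX2 and msl-2, were named after their values were seen.

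**Figure D4:**
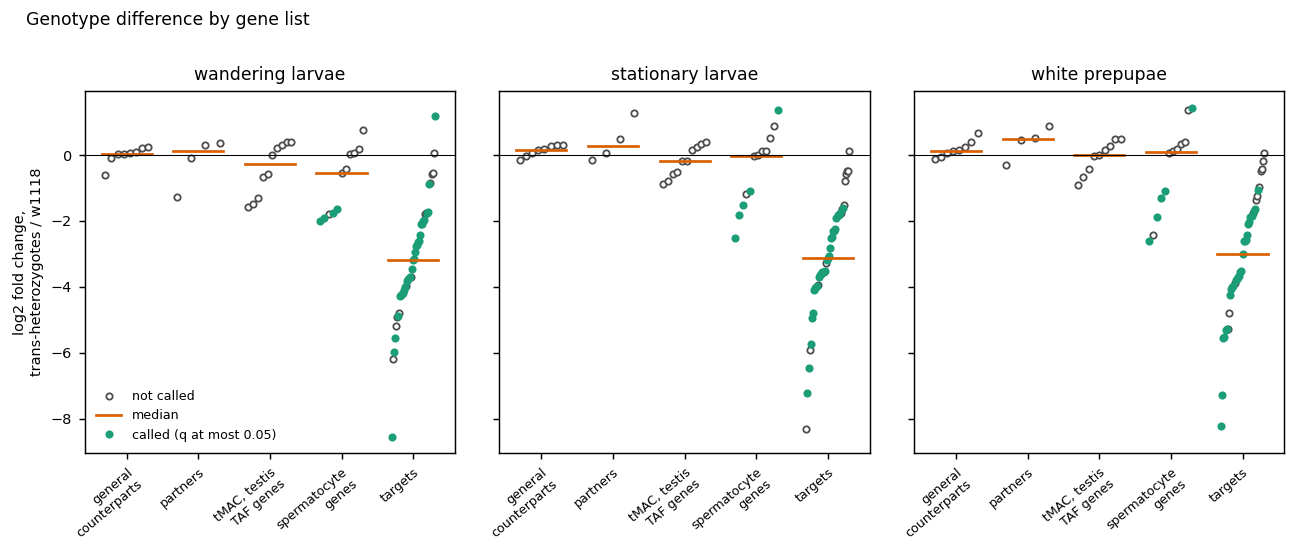
Log2 fold change, trans-heterozygotes relative to w1118 (y axis), of each tested gene in 5 lists (x axis) at the 3 stages, with called genes filled, uncalled genes open and the median as a line. No regulator, partner or general counterpart is called, which for each of these short lists is close to the background. Of the targets 28, 28 and 29 are called lower. The list labelled spermatocyte genes also holds bam and bgcn, which are early germline genes. Genes listed at 0 in 1 genotype are not drawn.

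Genes for proteins that share a complex with the regulators were few. Of 4 tested partners 0 were called at each stage, with 0, 2 and 1 at an unadjusted p under 0.05. The share of all tested genes called was 11.8%, 17.9% and 16.9%, so with so few genes this count is close to the background. The tMAC and dREAM subunit mip40 had 17.9 against 16.9 FPKM, 18.4 against 16.7 FPKM, and 17.8 against 14.5 FPKM. Caf1, the histone-binding subunit common to several chromatin complexes, had 28.3 against 36.7 FPKM, 27.9 against 39.0 FPKM, and 26.8 against 38.7 FPKM (q = 0.525, 0.179 and 0.0707). wuc, a testis relative of lin-52 that binds aly, had 5.96 against 7.44 FPKM, 5.81 against 14.0 FPKM, and 5.68 against 10.5 FPKM (q = 0.997, 0.0871 and 0.351). The testis TAF gene Taf12L, also called rye, had 2.31 against 0.968 FPKM, 1.99 against 2.07 FPKM, and 1.48 against 2.04 FPKM (q = 0.908, 0.992 and 0.892). wuc and Caf1 were higher in the trans-heterozygotes at each stage.

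Of the 8 general counterparts 0 were called at any stage, and 0 had an unadjusted p under 0.05, a count that is also close to that background. In stationary larvae mip130 had 12.0 against 10.8 FPKM, mip120 had 7.22 against 8.93 FPKM and lin-52 had 7.93 against 9.75 FPKM. The general TAF genes Taf4, Taf5, Taf6, Taf8 and Taf12 had 27.7 against 27.3 FPKM, 6.58 against 7.42 FPKM, 18.5 against 20.4 FPKM, 8.75 against 10.6 FPKM, and 21.4 against 22.3 FPKM at that stage. On this scale, a level per transcript length, each testis TAF gene had a lower level than its counterpart in w1118 stationary larvae, from 4.59 for can beside 6.58 for Taf5 to 1.99 for Taf12L beside 21.4 for Taf12.

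A list kept under the heading of spermatocyte chromatin and transcription went in both directions. It holds tbrd-1, tbrd-2, tbrd-3, kmg, chif, Rbp4, bol, twe, CycB, tut, bam and bgcn. Both bam and bgcn are also among the early germline genes below, so the counts do not describe spermatocyte genes alone. Of 11 tested in wandering larvae 4 had fallen and 0 had risen, and of 12 tested in stationary larvae and in prepupae 4 had fallen and 1 had risen at each stage. Over all tested genes 9.49%, 13.2% and 12.9% were called lower and 2.29%, 4.7% and 4.03% higher. bol and twe, which are also on the target list, were among those that fell. The testis bromodomain genes tbrd-1 and tbrd-2, whose proteins work with the testis TAFs on spermatocyte chromatin, fell, with 13.2 against 4.24 FPKM and 4.54 against 1.22 FPKM in wandering larvae (q = 9.16e-05 and 7.89e-04). They also fell, with 14.9 against 7.04 FPKM and 5.52 against 1.92 FPKM in stationary larvae, and 12.2 against 5.79 FPKM and 4.23 against 1.71 FPKM in prepupae. tbrd-3 was not called, at 2.74 against 0.796 FPKM, 5.06 against 2.22 FPKM, and 4.12 against 0.767 FPKM.

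Rbp4, an RNA-binding protein gene of spermatocytes, went the other way. It had 7.03 against 12.0 FPKM in wandering larvae (q = 0.150), rose, with 7.04 against 18.0 FPKM in stationary larvae (q = 2.78e-04) and rose, with 5.39 against 14.6 FPKM in prepupae (q = 1.02e-04). In prepupae it was not called through start-site groups, the level at which transcripts sharing a start are summed. kmg, a zinc-finger gene that keeps somatic programmes off in spermatocytes, was not called, at 2.15 against 1.62 FPKM, 2.33 against 2.52 FPKM, and 1.79 against 2.02 FPKM. chif, in a merged entry with CG42231, was the most abundant uncalled gene, at 36.6 against 41.4 FPKM, 50.1 against 50.0 FPKM, and 44.3 against 48.6 FPKM.

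Markers of the cells and sexes in the samples were measured beside these results, and their part in them was not tested. Of 14 early germline genes 7, 10 and 9 were tested. At each stage 0 were called lower, where 9.49%, 13.2% and 12.9% of all tested genes were. With so few genes this count is close to the background. At each stage 1 was called higher, where 2.29%, 4.7% and 4.03% of all were. It was aub, a gene of the piRNA pathway, with 1.02 against 2.84 FPKM, 1.23 against 4.39 FPKM and 1.01 against 3.27 FPKM (q = 0.0219, 3.16e-04 and 0.0421). The summed level of these 14 genes was 33.9 against 38.6 FPKM in wandering larvae and 38.9 against 51.0 FPKM in stationary larvae. In prepupae it was 35.8 against 47.6 FPKM, and 0 of the 14 genes were at 0. Much of the sum came from bgcn, whose entry is merged with wibg, and from ovo. In wandering larvae these had 8.79 against 9.03 FPKM and 8.34 against 8.43 FPKM. The part of wibg cannot be separated, and whether each listed gene is transcribed in the germline alone was not tested. The sum is therefore not a measure of germline content. The germline gene vas had 3.05 against 4.55 FPKM, 2.84 against 5.97 FPKM, and 2.60 against 4.11 FPKM, without a call. The gene bam, which ends spermatogonial division, had 0.572 against 0.942 FPKM, 0.761 against 1.40 FPKM, and 0.621 against 1.61 FPKM. In wandering larvae bam was not tested, and at the later stages it was not called. krimp, another piRNA pathway gene, had the lower value in the trans-heterozygotes at each stage, with 2.89 against 1.66 FPKM, 2.98 against 2.23 FPKM, and 2.44 against 1.60 FPKM, and was not called either. The most abundant uncalled gene from stationary larvae on was ovo, at 11.3 against 10.9 FPKM and at 11.9 against 12.4 FPKM. Of 8 gonad soma genes 5, 6 and 6 were tested and 0 were called at any stage, where 11.8%, 17.9% and 16.9% of all tested genes were. At an unadjusted p under 0.05 there were 0, 1 and 0, against 18.2%, 25.9% and 25.6% of all. With so few genes these counts are close to the background. The sums of the gonad soma genes were 55.2 against 50.7 FPKM, 75.3 against 68.4 FPKM, and 70.9 against 77.6 FPKM. Several of these 8, such as zfh1 and esg, are also transcribed in other tissues.

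A list of 7 spermatocyte genes took all but fest and CycB3 from the lists above. At each stage 4 were called lower, and 0, 1 and 1 were called higher. Of all tested genes 9.49%, 13.2% and 12.9% were called lower and 2.29%, 4.7% and 4.03% higher. Among the lower calls only fest was not on the lists above, with 40.6 against 17.0 FPKM in wandering larvae. The sum of the list was 160.0 against 61.7 FPKM, 200.1 against 86.1 FPKM, and 165 against 65.6 FPKM. This sum was led by the merged entry of betaTub85D with Task7, which fell, with 75.0 against 12.0 FPKM in wandering larvae. CycB3, uncalled, had 17.0 against 14.4 FPKM there. Of the male genes, roX1, a noncoding RNA of dosage compensation, rose, with 209 against 322 FPKM in wandering larvae (q = 0.0449) and was not called at 260.0 against 350.0 FPKM and at 208 against 255 FPKM. roX2 had 40.6 against 42.3 FPKM, 38.3 against 28.1 FPKM, and 44.0 against 20.7 FPKM, and msl-2 had 10.7 against 11.1 FPKM, 13.6 against 12.6 FPKM, and 11.4 against 11.8 FPKM, neither called. The female-determining gene Sxl, transcribed in both sexes, had 54.9 against 45.9 FPKM, 65.9 against 60.5 FPKM, and 71.5 against 69.9 FPKM.

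At the level of isoforms 6 regulators had 1 entry and 4 had more than 1, and no isoform was called. Of 10 tested isoforms in wandering larvae 0 were called, against 7.36% of all tested isoforms. Of 9 in stationary larvae 0 were called, against 11.3%, and of 8 in prepupae 0, against 12.2%. At an unadjusted p under 0.05 there were 2, 0 and 1. The isoform entries are a second reading of the same fragments and add no independent support. Isoforms are numbered here in the order of the deposited identifiers.

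In vis the balance of isoforms leaned the same way at every stage. Isoform 1 held 71.7% of the gene's FPKM in w1118 and 56.1% in trans-heterozygous wandering larvae, 53.8% and 45.2% in stationary larvae and 61.0% and 38.6% in prepupae. Its own level was 6.01 against 5.88 FPKM, 5.64 against 5.59 FPKM, and 5.43 against 3.82 FPKM, while isoform 2 had 2.37 against 4.6 FPKM, 4.84 against 6.78 FPKM and 3.48 against 6.09 FPKM. The authors' splicing test of vis gave square roots of the Jensen-Shannon divergence, which is 0 for equal usage, of 0.115, 0.0611 and 0.159, and q of 0.706, 0.809 and 0.218. The shift was therefore not called, and it had an unadjusted p under 0.05 in prepupae alone. In achi, isoform 1 held 37.5% and 39.2%, 35.1% and 37.7%, and 29.3% and 39.5%, also with no call.

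In aly, isoform 1 was listed at 0 in w1118 at every stage and at 0.115, 0.484 and 0.348 FPKM in the trans-heterozygotes, or 6.96%, 22.8% and 19.5% of the gene. The authors' software did not test it. Such a pattern at all 3 stages was held by 167 of 32574 isoforms, 0.513%, and the reverse pattern by 261, 0.801%. In mia, isoform 1 held 39.3% and 46.8%, 28.7% and 34.0%, and 14.2% and 28.3%. Over splicing, promoter and coding-sequence usage 14 tests of the regulators were made, of which 0 were called by the authors' software and 2 had an unadjusted p under 0.05, both from vis in prepupae. The splicing and coding-sequence tests of vis had the same divergence and unadjusted p at each stage. Those of achi also matched where both were made. These pairs, and the 2 results of vis in prepupae, are therefore not separate evidence. The background was 2.69%, 5.88% and 9.78% of splicing tests at the 3 stages, 4.59%, 8.43% and 10.2% of promoter tests and 1.93%, 6% and 7.47% of coding-sequence tests.

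**Figure D5:**
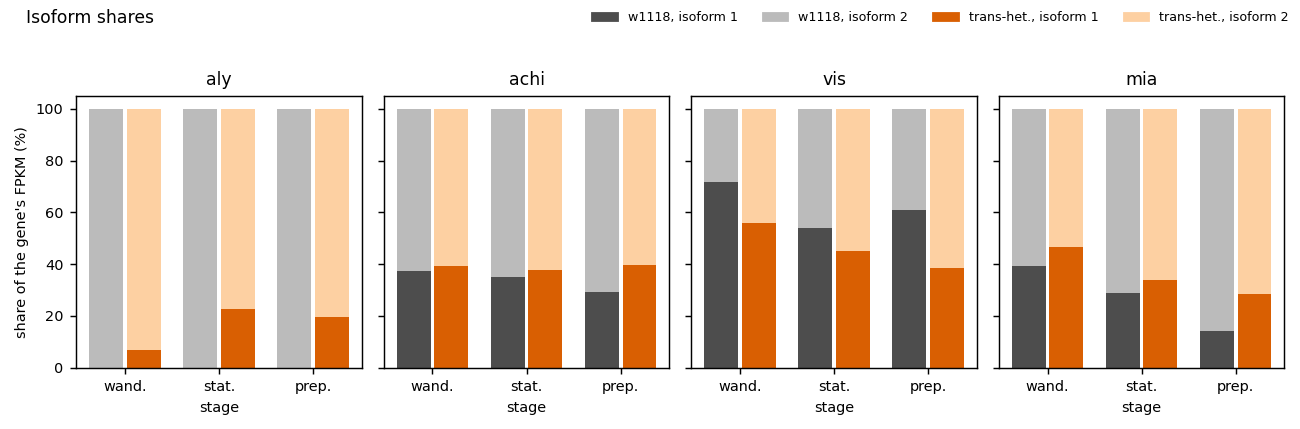
Share of each gene's FPKM (y axis, percent) held by isoform 1 (dark) and isoform 2 (light) in w1118 (grey) and the trans-heterozygotes (orange) at the 3 stages (x axis), for the 4 regulators with more than 1 isoform entry. Isoform 1 of vis holds less in the trans-heterozygotes at each stage, 38.6% against 61.0% in prepupae, and isoform 1 of aly is listed at 0 in w1118; shares are of pooled values and have no error.

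Most regulators had their higher level in stationary larvae in both genotypes, read on each stage's own scale. These counts take the merged entry with CG14015 for tomb. In w1118, 9 of 10 entries had a higher FPKM in stationary than in wandering larvae, where 69.2% of 10284 genes did. Among the entries nht was the exception. From stationary larvae to prepupae 1 of 10 entries was higher, mia, against 42.7% of genes. The isoform of tomb alone did not follow in w1118, at 1.42, 1.30 and 1.36 FPKM at the 3 stages in turn. In the trans-heterozygotes all 10 were higher in stationary than in wandering larvae, against 64.5% of genes, and 0 of 10 were higher in prepupae than in stationary larvae, against 46.2%. The median level of the 10 was 3.41, 4.02 and 2.95 FPKM in w1118 and 2.67, 3.76 and 2.92 FPKM in the trans-heterozygotes.

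The regulators differ in gene structure. In the current Ensembl annotation, which is of another assembly and was used for structure only, their longest transcripts had 836 to 2953 bases and 1 to 9 exons, with medians of 2196 bases and 3 exons beside 1699 bases and 3 exons over 13986 protein-coding genes. comr and nht have 1 exon, and achi and vis have 9 and 8. They lie on arms 2L, 2R, 3L and 3R, with none on X.

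For each regulator the gene with the most similar 6 levels was found among 9881 single-gene entries, by Euclidean distance of log2(FPKM + 1), a description that reflects level as well as pattern. The nearest gene to aly was kmg, listed as CG5204, at a distance of 0.40, with 2.15 against 1.62 FPKM in wandering larvae. The nearest to topi was CR43297 (distance 0.19), which had 2.78 against 0.933 FPKM in wandering larvae, 3.53 against 1.83 FPKM in stationary larvae and 2.88 against 1.73 FPKM in prepupae. The nearest to nht was CG3526 (0.44), with 6.76 against 2.01 FPKM in wandering larvae. For comr, sa and mia they were CG14339 (0.28), CG12782 (0.50) and CG31251 (0.18). For achi, vis and can they were Spc25 (0.24), Nf1 (0.18) and Snm1 (0.26), and for the merged tomb entry cac (0.19). Of pairs within the regulators the closest was the merged tomb entry and can, at 0.63, followed by that entry and mia at 0.74. The part of CG14015 in these distances cannot be separated, so they do not describe tomb alone. Among pairs without that entry the closest was aly and topi, at 0.75.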

How the data were processed

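The authors deposited 18 tables, 6 per stage. Bowtie 1.1.1, Cufflinks and Cuffdiff are named in the submitters' processing notes, without settings. Libraries were made from total RNA with the ScriptSeq kit, per the labels' protocols. FPKM values are deposited as 1 pooled value per genotype and stage, so tests over samples were not possible. The log2 fold change (trans-heterozygotes over w1118), p-value and q-value are deposited columns. The test statistic and the usage tests' root of the Jensen-Shannon divergence are deposited scores. A standard error was the log2 fold change divided by the test statistic; the deposited p-value lay within 1% of the statistic's normal tail for 97.9%, 98.4% and 97.9% of tested genes. Stage differences were tested as differences of log2 fold changes. The procedure was run on simulated data with planted differences larger than any of the regulators. That run therefore does not show its power at the sizes seen here. Lists were matched by symbol, or by RefSeq synonyms. All regulators were named, all partners and counterparts, and from other lists the largest called fold and the most abundant uncalled gene. The genes and lists were chosen with earlier results of these data known. Alternatives were a q of 0.01, start-site groups, an FPKM minimum of 1, other adjustments and pseudocounts of 0.1 and 1. Deposited starts count from 0 and were converted. Python 3.11.15, pandas 2.3.3, numpy 2.4.6 and scipy 1.17.1 were used.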

Additional observations from a re-analysis of the deposited data

How the results depend on the processing

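The counts of called regulators were 0 at every stage at a q of 0.01, through start-site groups, over genes with an FPKM of at least 1, with adjustment over all 3 stages together and without the merged entry. Without adjustment, 0 regulators had a p under 0.05 between stages. Of 88 values of single regulators under pseudocounts, 0 moved by more than their standard error. Rescaling by the median of expressed genes, which shifts all genes of a stage alike, changed the sign of 2 values near 0, those of tomb and sa in prepupae. On the target list the counts of fallen genes went from 28, 28 and 29 to 24, 26 and 25 at a q of 0.01 and to 21, 25 and 22 through start-site groups. The fallen spermatocyte genes went from 4 to 3 in wandering larvae and in prepupae under both. On the target list the count of risen genes in wandering larvae went from 1 to 0 at a q of 0.01 and to 0 through start-site groups. The count of risen spermatocyte genes in prepupae, Rbp4, went from 1 to 0 through start-site groups. The cause was not tested. No paired analysis was possible because the tables hold 1 pooled value per genotype, and fits without 1 replicate were not run for the same reason. Pooled values and unknown depth limit what can be seen.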

Other observations

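Genes of the general transcription machinery that the testis complexes resemble were also measured. The share of all tested genes called was 11.8%, 17.9% and 16.9% at the 3 stages. Of 11 tested dREAM and E2F genes 0 were called at each stage by the authors' Cuffdiff test, with 0, 1 and 1 at an unadjusted p under 0.05. E2f had 52.9 against 58.5 FPKM in wandering larvae, and Myb had 52.5 against 48.9 FPKM in stationary larvae and 54.0 against 46.2 FPKM in prepupae. Of 18, 19 and 19 tested TFIID and related genes 0 were called, with 0, 1 and 2 at an unadjusted p under 0.05. Taf10 had 53.7 against 57.5 FPKM in wandering larvae and 63.0 against 62.7 FPKM in stationary larvae, and Taf10b had 56.4 against 67.1 FPKM in prepupae. Taf11, chosen after its values were seen, had 12.6 against 13.5 FPKM, 13.0 against 23.6 FPKM, and 13.4 against 24.0 FPKM (q = 1.0, 0.0790 and 0.0618).

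Of 7 ovary and yolk protein genes 2 were tested at each stage. Yp3, a yolk protein gene, fell in prepupae, with 7.46 against 1.12 FPKM (q = 5.33e-05) and was not called in wandering larvae, at 10.2 against 6.46 FPKM. The oocyte gene grk was not called, at 8.53 against 7.38 FPKM in stationary larvae and 7.47 against 7.65 FPKM in prepupae. Of genes that mark other tissues, the myosin gene Mhc rose in both larval stages, with 42.9 against 141 FPKM in wandering larvae and 5.93 against 47.9 FPKM in stationary larvae. The salivary glue gene Sgs3 rose in stationary larvae, with 4905 against 8545 FPKM (q = 0.0453), and in prepupae, with 49.5 against 152 FPKM. Fbp1 of the fat body and the neuronal gene elav were not called at any stage.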
